A study of Mus musculus with 8 samples.

Results

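The mitochondrial respiratory chain was examined in the aging mouse hippocampus by the genes of its nuclear-encoded subunits. Members were chosen by name: every probe whose accession mapped to a mouse gene starting with Nduf, Uqcr or Atp5, to Sdha, Sdhb, Sdhc or Sdhd, or to a gene starting with Cox4, Cox5, Cox6, Cox7 or Cox8. This gave 123 of the 39429 probes on the array and 92 of the 19742 genes with a tested probe. RefSeq lists 96 protein-coding genes under these names, and for 4 of them (Atp5g1, Ndufb1, Ndufb4b and Ndufb4c) no tested probe was matched. Hippocampal RNA in 4 samples from young adult mice at 3 months of age (3M) was compared with 4 samples from mice at advanced age, 29 months (29M). All were untreated wild type C57BL/6J animals that had aged in their home cages, and the hippocampus was taken whole, by hand dissection. By the study's methods the mice came from a breeder, and the oldest were bought already aged and then kept for months in the authors' rooms. How long the young mice were kept there is not stated. Each sample was labelled with the dye Cy3 and hybridised to 1 array, on which the brightness of a spot reports the abundance of a transcript. The labels do not say whether each sample is 1 animal, so p-values measure the spread between these samples.

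The respiratory chain sits in the inner mitochondrial membrane. Complex I takes electrons from NADH and complex II from succinate, ubiquinone carries them to complex III, and cytochrome c carries them on to complex IV, which passes them to oxygen. Complexes I, III and IV pump protons, and complex V, the ATP synthase, lets the protons return and makes ATP. Neurons draw most of their ATP from this route, and several complex IV subunits exist as a ubiquitous isoform and an isoform of muscle, lung or testis.

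The 8 arrays lay on 3 slides, each of which held both ages. Slide 1 held 3M replicate 1 and 29M replicates 3 and 4. Slide 2 held replicate 2 of each age, and slide 3 held 3M replicates 3 and 4 and 29M replicate 1. Between 76.2% (3M replicate 1) and 85.0% (3M replicate 4) of the 43020 spots that were not controls were well above background, and no spot was saturated. The quality summary in the file headers marked 3M replicate 1 for evaluation and every other array as in range. Of the 92 genes, 91 had a probe well above background on all arrays of at least 1 age (a bright probe), and the exception was Cox8c. Values are normalized log2 intensities, and a change is the 29M mean minus the 3M mean. Calls needed both a log2 change of 0.5 or more in size and an adjusted p under 0.1 (limma, with Benjamini-Hochberg adjustment over every probe tested). Markers of hippocampal neurons did not move as a list: 0 of 14 were called by limma and 0 had an unadjusted p under 0.05, with a median log2 change of -0.01. Of 12 microglia markers 4 were called higher at 29M (C1qa, C1qb, Trem2 and Tyrobp), and the median of the list was 0.41. Of 10 astrocyte markers Gfap was called higher by 0.71, while the list had 6 above 0 and 4 below, with a median of 0.15. Of 10 ependyma markers Spag6 was called higher by 1.81, while the list had 5 above 0 and 5 below, with a median of 0.03. In whole tissue a different number of cells of a type and a different amount of RNA per cell cannot be told apart.

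Only 1 of the 92 respiratory chain genes was called between the ages. Cox8b, the heart and skeletal muscle isoform of complex IV subunit 8, was 2.34-fold higher at 29M. No member was called lower. Among all genes 1.56% were called higher and 0.664% lower, so the members' 1 call, or 1.09%, lay near the background. By probe, 1 of 123 member probes was called (0.813%), against 1.96% of all probes. At an unadjusted p under 0.05, 2 members were higher (2.17%) and 6 were lower (6.52%), against 9.51% and 7.87% of all genes. The 4 values of one age lay wholly above those of the other, in the direction of higher at 29M, in 2 members (2.17%, against 6.31% of all genes). In the direction of lower at 29M the groups were separate in 4 members (4.35%, against 5.27%). The change was above 0 in 43 members (46.7%, against 52.7% of all genes), and the median was -0.01 for the members and 0.01 for all genes.

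The intervals describe how precisely the change of each gene was measured by its probe. They are not adjusted for the number of genes and do not cover differences between probes of the same gene. In 84 of the 92 genes (91.3%) the 95% confidence interval of the log2 change lay wholly between -0.5 and 0.5, against 71.8% of all genes. Members were brighter than most genes, with a median log2 intensity of 16.31 against 10.69 and a median SE of 0.09 against 0.11. Of the 6120 genes within the members' range of intensity, apart from its ends, 83.8% had such an interval, and their median log2 intensity, at 14.002, was still below that of the members. The 8 members without one were Ndufa2, Ndufa5, Ndufaf5, Ndufa4, Cox6a2, Cox6b2, Cox8b and Cox8c. The plot of members with their intervals and the plot of the distribution of changes show both facts.

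**Figure D1:**
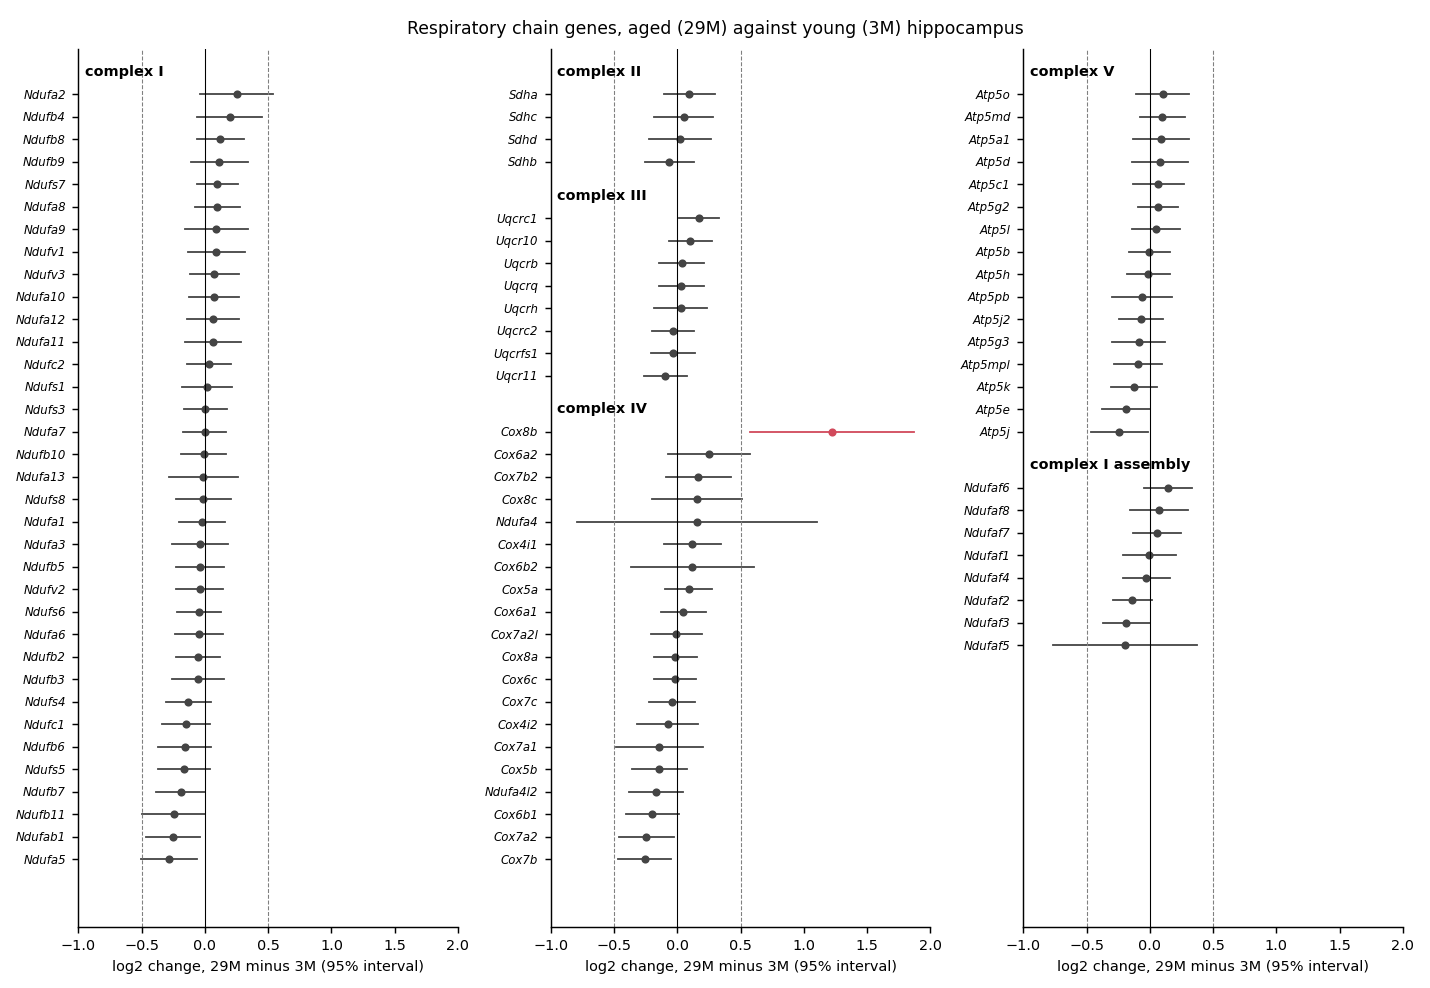
Log2 change from 3M to 29M (x axis) of 91 of the 92 respiratory chain genes, grouped by complex and ordered by size. Points are limma estimates from 4 arrays per age, lines are 95% intervals, dashed lines mark -0.5 and 0.5, and red marks the called gene. Cox8b, at 1.22, stands to the right of all other members, and most intervals lie between the dashed lines.

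**Figure D2:**
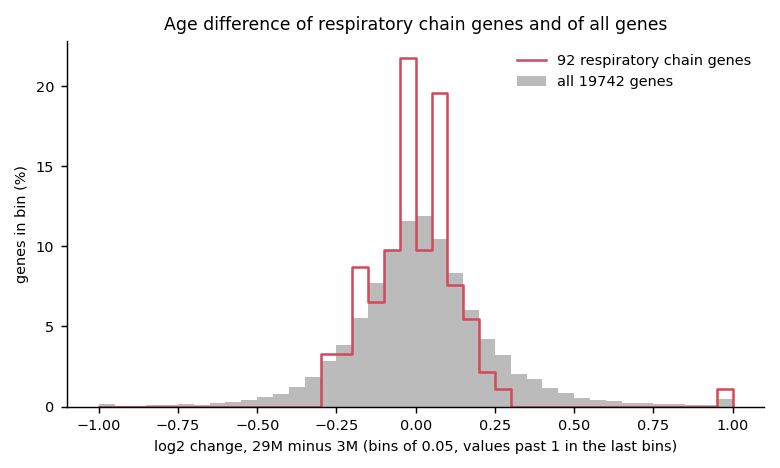
Share of genes (y axis, in percent) by log2 change from 3M to 29M (x axis, in bins of 0.05) for the 92 respiratory chain genes (red line) and all 19742 genes (grey bars). The members are gathered about 0, with a median of -0.01 against 0.01, and apart from Cox8b none lies beyond -0.28 or 0.25.

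Complex I, the NADH dehydrogenase, held 36 members, and none was called by limma, with 0 higher and 2 lower at an unadjusted p under 0.05. The median log2 change was -0.01, with 16 genes above 0 and 20 below. Of its 7 core subunits, which carry the flavin and iron-sulphur centres, Ndufv2 was lowest at -0.04 (SE 0.08). Ndufv2, of the NADH-binding module, was at 16.21, 16.19, 16.18 and 16.17 in the 3M replicates and at 16.06, 16.01, 16.25 and 16.27 in the 29M replicates. The 29M values lay on both sides of the 3M values.

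The 29 accessory subunits, which surround the core, had a median of -0.03, with 11 above 0 and 18 below. The lowest was Ndufa5, at 16.99, 17.06, 17.00 and 16.96 at 3M and at 16.76, 16.51, 16.95 and 16.65 at 29M. All 4 aged values lay under the 4 young ones, 29M replicate 3 only narrowly, and the change of -0.28 (SE 0.10) did not pass the test (adjusted p = 0.192, limma). The other probe of Ndufa5, at 15.03 over all arrays, had overlapping groups and a change of -0.16 (SE 0.09, adjusted p = 0.407, limma). Ndufab1, the mitochondrial acyl carrier protein, followed at -0.25 (SE 0.09, adjusted p = 0.215). Its probe was the dimmest of complex I, at 9.53 over all arrays, and a sequence of similar name is annotated in the genome, so its value is uncertain. At the other end Ndufa2 had a change of 0.25 (SE 0.13) and Ndufb4 a change of 0.20 (SE 0.11). Both had overlapping groups: Ndufa2 ranged from 16.20 to 16.74 at 3M and from 16.64 to 16.98 at 29M, and Ndufb4 from 16.62 to 17.14 and from 16.90 to 17.10. Several accessory subunits have more than 1 probe, and for Ndufb4, Ndufb6 and Ndufb11 the probes differed in sign. The 2 probes of Ndufb11, for instance, gave -0.25 and 0.25, but the second was far dimmer (mean log2 intensity 7.77 against 16.64). The 2 probes of Ndufb6 were of like brightness (15.50 and 15.46) and gave -0.16 and 0.14, the second with separate groups (adjusted p = 0.328, limma). Of the 24 members with more than 1 probe, 8 had probes of unequal sign.

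The 8 Ndufaf genes encode factors that assemble complex I and are not part of the finished enzyme. None was called (1, Ndufaf3 at -0.19, was lower at an unadjusted p under 0.05), and the median was -0.02. The highest was Ndufaf6 at 0.14 (SE 0.09), and the lowest was Ndufaf5, an arginine hydroxylase that acts on a core subunit, at -0.20 (SE 0.25). Ndufaf5 owed its wide error to the 3M samples, which were at 11.18, 12.47, 12.40 and 12.004, against 11.996, 11.85, 11.57 and 11.84 at 29M. The low value was that of 3M replicate 1, which also had the smallest share of spots above background. Ndufaf2, chosen after its values were seen because its groups did not overlap, was at 13.51, 13.48, 13.49 and 13.48 at 3M and at 13.31, 13.38, 13.45 and 13.27 at 29M, a change of -0.14 (SE 0.07, adjusted p = 0.358, limma).

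Complex II, the succinate dehydrogenase that also works in the citric acid cycle, has 4 subunits, and all 4 were measured. Sdha, the flavoprotein, was at 15.91, 15.63, 15.65 and 15.59 at 3M and at 15.79, 15.86, 15.70 and 15.82 at 29M, a change of 0.09 (SE 0.09). Sdhb, the iron-sulphur subunit, had a change of -0.06 (SE 0.09). The membrane anchors Sdhc and Sdhd had changes of 0.05 (SE 0.10) and 0.02 (SE 0.11). No change in complex II passed the limma test, 0 were under an unadjusted p of 0.05, and every interval of its genes lay between -0.26 and 0.30. These values are those of the brightest probe of each gene. The other probe of Sdhc gave 0.18 (SE 0.07, adjusted p = 0.248, limma) with separate groups and an interval from 0.016 to 0.34, and the other probe of Sdhb gave 0.05 (SE 0.09).

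Complex III, the cytochrome bc1 complex, held 8 members with a median of 0.03, 5 above 0 and 3 below, and none was called. Uqcrc1, a core subunit that faces the matrix, was at 15.38, 15.38, 15.40 and 15.38 at 3M and at 15.55, 15.45, 15.62 and 15.62 at 29M. The 3M values were almost identical and all 4 aged values lay above them, yet the change of 0.17 (SE 0.07, adjusted p = 0.260, limma) reached neither threshold. Uqcr11, a small peripheral subunit, was lowest at -0.10 (SE 0.08), with 3M values from 16.97 to 17.17 and 29M values from 16.90 to 17.04. The other 6 genes, among them the Rieske iron-sulphur protein gene Uqcrfs1, lay between these.

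Complex IV, the cytochrome c oxidase, held 20 members, counting Ndufa4, which is now placed in this complex, its relative Ndufa4l2, and the supercomplex factor Cox7a2l. It was the complex with the called gene and with the widest spread among its members, from -0.26 to 1.22, around a median of -0.01. Of its ubiquitous subunits 4 of 11 were above 0 and 7 below. None was called, and 2 were lower at an unadjusted p under 0.05. The lowest were Cox7b and Cox7a2. Cox7b was at 17.06, 17.02, 17.32 and 17.04 at 3M and at 16.82, 16.73, 16.95 and 16.89 at 29M. The groups did not overlap, and the change of -0.26 (SE 0.09) had an adjusted p of 0.202 (limma). Cox7a2 was at 16.13, 16.29, 16.52 and 16.29 at 3M and at 16.01, 15.96, 16.12 and 16.16 at 29M. There 29M replicate 4 exceeded 3M replicate 1, and the change was -0.25 (SE 0.10, adjusted p = 0.238, limma).

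Ndufa4, chosen after its values were seen because its interval was the widest of all members, had 1 array far from the others. It was at 14.04, 16.13, 16.16 and 15.67 at 3M and at 15.81, 15.82, 15.19 and 15.80 at 29M. Replicate 1 of 3M stood far under the others, and the change of 0.15 had an SE of 0.42 and an interval from -0.79 to 1.10. Its relative Ndufa4l2, a hypoxia-induced gene of mural cells, had separate groups with a change of -0.17 (SE 0.10, adjusted p = 0.417, limma). It was at 11.15, 10.81, 10.79 and 10.82 at 3M and at 10.78, 10.64, 10.73 and 10.73 at 29M, so that the nearest values of the ages almost met.

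For the 6 subunits of complex IV with a ubiquitous and a tissue isoform, both were compared. Cox4i1, a regulatory subunit, had a change of 0.12 (SE 0.10) and its lung isoform Cox4i2 one of -0.08 (SE 0.11). Cox6a1 had a change of 0.05 (SE 0.08) and its muscle isoform Cox6a2 one of 0.25 (SE 0.14). For subunit 6b the changes were -0.20 (SE 0.09) for Cox6b1 and 0.12 (SE 0.22) for the testis isoform Cox6b2. Cox6b2 was low in 3M replicate 3, at 11.65 against 12.40 to 12.77 in the other young samples. The muscle isoform Cox7a1 had a change of -0.14 (SE 0.15) and the testis isoform Cox7b2 one of 0.17 (SE 0.11). None of these was called. Of the tissue isoforms only Cox8b had an interval that did not reach 0.

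**Figure D3:**
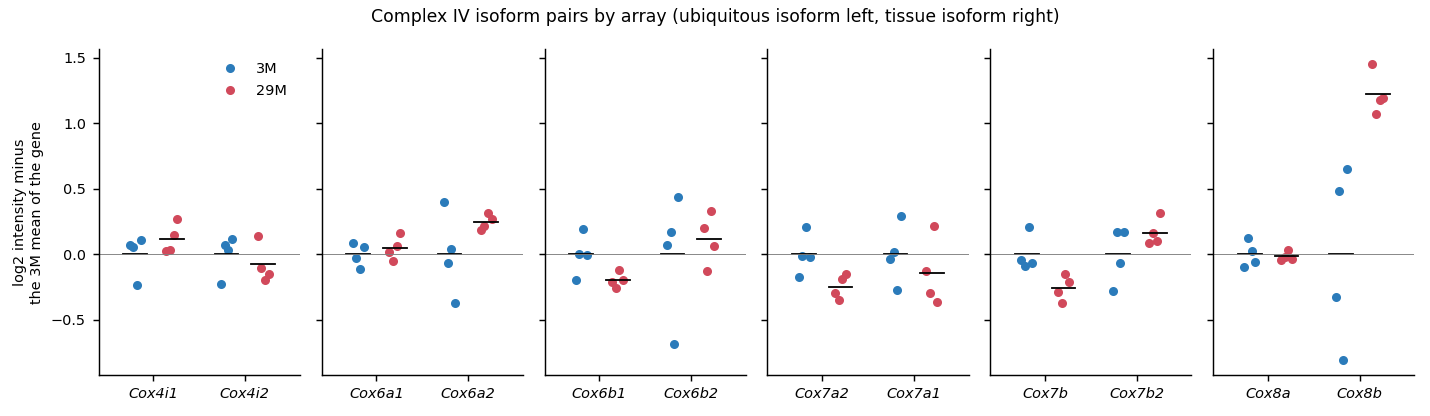
Normalized log2 intensity minus the 3M mean of the same gene (y axis) on each of the 4 arrays per age, for 6 subunits of complex IV with the ubiquitous isoform on the left and a tissue isoform on the right. Horizontal bars are group means. The 29M values of Cox8b lie above all its 3M values, while Cox8a, with values from 18.05 to 18.27, stays close to its 3M mean.

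Cox8b is the muscle isoform of a small complex IV subunit, and Cox8a is the isoform of most tissues. Stretches around their annotated starts are shown, together with that of Cox6a1. Each runs 5′ to 3′ on the gene's own strand, from 250 bases before the start to 30 bases after it, as given by RefSeq (GRCm38.p6). All are on the minus strand: Cox8b at chr7:140900417-140900696, Cox8a at chr19:7217587-7217866 and Cox6a1 at chr5:115348929-115349208. Capitals mark matches to 6 short motifs, read on both strands: CGCATGCG (the core read by the factor NRF1), CCGGAAG (read by GABPA), AAGATGGC (YY1), GGGCGG (the GC box of SP1), TATAAA (the TATA box) and CAGCTG (an E box).
Cox8b: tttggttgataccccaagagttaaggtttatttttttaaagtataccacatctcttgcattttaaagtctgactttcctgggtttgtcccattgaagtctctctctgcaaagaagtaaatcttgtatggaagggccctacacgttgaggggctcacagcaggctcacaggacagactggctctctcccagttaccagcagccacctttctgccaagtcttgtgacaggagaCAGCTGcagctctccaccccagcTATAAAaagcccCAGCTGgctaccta
Cox8a: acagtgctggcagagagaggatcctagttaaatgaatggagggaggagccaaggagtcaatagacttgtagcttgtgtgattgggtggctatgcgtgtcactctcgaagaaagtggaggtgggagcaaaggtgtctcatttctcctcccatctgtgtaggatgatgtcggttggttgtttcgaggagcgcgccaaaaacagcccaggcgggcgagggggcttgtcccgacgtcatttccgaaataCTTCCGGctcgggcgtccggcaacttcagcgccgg
Cox6a1: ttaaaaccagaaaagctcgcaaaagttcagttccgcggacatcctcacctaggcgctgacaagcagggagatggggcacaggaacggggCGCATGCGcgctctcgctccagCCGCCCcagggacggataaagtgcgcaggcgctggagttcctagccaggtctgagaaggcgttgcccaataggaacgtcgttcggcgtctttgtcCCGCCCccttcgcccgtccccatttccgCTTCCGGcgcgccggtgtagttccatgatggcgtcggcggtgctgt

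In the Cox8b stretch the capitals are a TATA box between 2 E boxes, and no motif of NRF1, GABPA, YY1 or SP1 was found. The first E box lies before the annotated start, and the letters TATAAA and the second E box lie after it, so their names here stand for letters only. Cox8a had the GABPA motif near its start, and a further copy in the last bases of its 300-base window, which is not printed. Cox6a1, the brightest member by its probe, had motifs of NRF1, SP1 (2 copies) and GABPA. The TATA box and the E box were added to the search after the Cox8b window had been read. Windows were at hand for 75 of the 92 members and for 27025 genes in all. The NRF1 core was in 11 of the 75 members (14.7%), against 2.07% of all windows, and the GABPA motif in 19 (25.3%), against 9.93%. The YY1 core was in 11 members (14.7%, against 3.19%), 7 of them in complex I, and the GC box in 35 (46.7%, against 38.2%). Of the 14 complex IV windows, 1 (Cox6a1) held the NRF1 core, 3 the GABPA motif, 0 the YY1 core and 6 the GC box. Most windows of complex IV thus lacked each of these motifs, and their absence was not particular to Cox8b. The TATA box was in 8 members (against 15.7% of all windows) and the E box in 6 (8.0%, against 18.3%). These counts describe letters in a window. Members with and without the NRF1 core had median log2 changes of 0.05 and -0.01, and those with and without the GABPA motif of -0.01 and -0.01.

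By array, Cox8b was at 11.99, 12.79, 11.50 and 12.96 in the 3M samples and at 13.76, 13.38, 13.49 and 13.51 in the 29M samples. All aged values lay above all young ones, and the young samples spread more widely (SD 0.69 at 3M and 0.16 at 29M, n = 4 each). The log2 change was 1.22 (SE 0.29, 95% interval from 0.58 to 1.87, adjusted p = 0.0743, limma). With groups so separate the change had to be positive within each slide, and it was 1.51, 0.59 and 1.53 on slides 1, 2 and 3. Slide 1 had 3M replicate 1 as its only young array, and slide 2 held only replicate 2 of each age. The call was near its threshold. It was lost with slide as a fixed block (adjusted p = 0.133), with processed signals scaled to their 75th percentile (0.154) and on leaving out 3M replicate 2 or 3 (0.106 and 0.107) or 29M replicate 1, 2, 3 or 4 (0.194, 0.147, 0.118 and 0.162), while the change itself stayed between 0.95 and 1.44. Cox8a was at 18.05, 18.27, 18.17 and 18.09 at 3M and at 18.10, 18.12, 18.18 and 18.11 at 29M, with a change of -0.02 (SE 0.08), and its other probe gave -0.24. The testis isoform Cox8c was well above background on 0 of the 3M arrays and 1 of the 29M arrays, so it has no fold.

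Markers of the choroid plexus, the secretory epithelium within the brain ventricles, differed between the samples and were set beside Cox8b. All 15 were bright, 0 were called and 0 had an unadjusted p under 0.05, 10 were above 0, and their median log2 change was 0.18. Their mean deviation from the average over arrays was -0.12, 0.37, -0.82 and 0.38 in the 3M replicates and 0.19, -0.19, 0.16 and 0.05 in the 29M replicates. In 3M replicate 3, 13 of the 15 markers were at their lowest of the 8 arrays, and so were 8 of 10 ependyma markers. The order of the young samples in these markers was also their order in Cox8b. The group means of these markers were -0.04 at 3M and 0.05 at 29M. Replicates 2 and 4 of 3M were above all 4 aged samples in choroid plexus markers, replicates 1 and 3 of 3M were below 29M replicates 1, 3 and 4, and all 4 young samples were below all aged ones in Cox8b. With the mean of the markers as a covariate, an analysis added after seeing the data, the change of Cox8b was 1.11 (SE 0.11, adjusted p = 0.00589, limma). The shared order of the young samples was known when this covariate was chosen. A covariate chosen so lowers the SE by its choice, and this adjusted p adds no support to the call. With 3M replicate 3 left out, and no covariate, the change of Cox8b was 0.95. The part of choroid plexus tissue in the value of Cox8b was not tested. Of 12 markers of striated muscle 9 were bright and 0 were called (1 was higher at an unadjusted p under 0.05), with a median of 0.07.

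**Figure D4:**
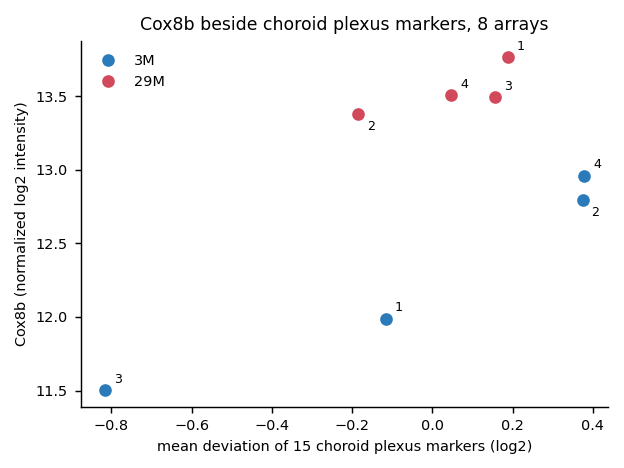
Cox8b (y axis, normalized log2 intensity) beside the mean deviation of 15 choroid plexus markers from their average over the 8 arrays (x axis, log2), with 1 point per array, numbered by replicate within each age. Within 3M the points run from 3M replicate 3 at the lower left (-0.82 and 11.50) to 3M replicate 4 at the right (0.38 and 12.96), and the 29M points lie above them, from 13.38 to 13.76.

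Complex V, the ATP synthase, held 16 members, and none was called by limma, with 1 lower at an unadjusted p under 0.05. The median log2 change was -0.01, with 7 genes above 0 and 9 below, and all 16 intervals lay between -0.5 and 0.5. The 5 genes of the catalytic F1 head ranged from -0.19 (Atp5e, the epsilon subunit, SE 0.09) to 0.09 (Atp5a1). Of the stalk, Atp5j was lowest at -0.24 (SE 0.10) and Atp5o, the subunit that confers sensitivity to oligomycin, was highest at 0.10 (SE 0.09). Atp5j was at 16.79, 16.70, 16.58 and 16.68 at 3M and at 16.35, 16.31, 16.69 and 16.43 at 29M. Replicate 3 of 29M lay within the young values while the other aged samples were below them (adjusted p = 0.258, limma). Atp5md, a small membrane subunit, had a change of 0.10 (SE 0.08). Of the genes that encode the same c subunit of the rotor ring, Atp5g2 had a change of 0.06 (SE 0.07) and Atp5g3 one of -0.09 (SE 0.09).

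The members were also averaged by array. The mean deviation over all 92 genes was within 0.01 of 0 on the 4 young arrays, and it was -0.03, -0.05, 0.06 and 0.03 on 29M replicates 1, 2, 3 and 4. By complex, the SD over samples was larger at 29M than at 3M in complexes I (0.067 and 0.015), III (0.048 and 0.0078) and V (0.078 and 0.034). It was smaller at 29M in complex II (0.031 and 0.12), complex IV (0.045 and 0.069) and complex I assembly (0.021 and 0.054), and these differences in spread were not tested. The widest was complex II, at 0.15 on 3M replicate 1 and -0.14 on 3M replicate 4, and complex IV was at -0.11 on 3M replicate 1. That low mean of complex IV rests mainly on 2 genes. On 3M replicate 1 Ndufa4 was at 14.04, against 15.58 over all arrays, and Cox8b at 11.99, against 12.92. In complex I, 29M replicates 1 and 2 were at -0.04 and -0.08 and 29M replicates 3 and 4 at 0.05 and 0.05, and the same sides held in complexes III and V for replicates 1, 2 and 3. The aged replicates 3 and 4 lay on slide 1, and the median change of all members was 0.03 within slide 1, -0.07 within slide 2 and -0.04 within slide 3. These medians rest on few arrays: the only young array of slide 1 was 3M replicate 1, and slide 2 held only replicate 2 of each age. The part of the slide in this pattern was not tested.

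**Figure D5:**
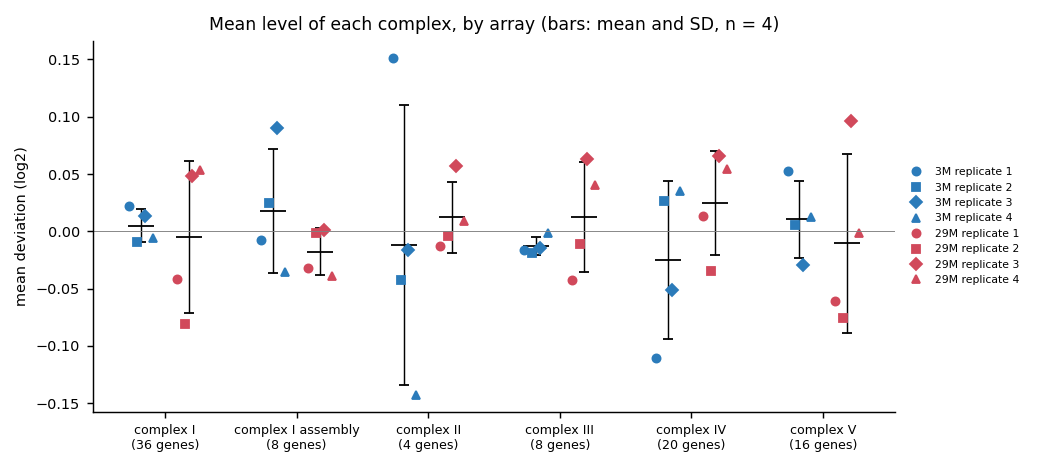
Mean deviation of the members of each complex from their average over the 8 arrays (y axis, log2), with 1 symbol per array and replicates told apart by shape. Horizontal lines are group means and bars are SDs (n = 4). The means of 3M and 29M lie within 0.05 of each other in every complex.

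Genes around the respiratory chain were read from lists of the same fit. None was called in 5 lists of pathway genes: 38 assembly factors of complexes I to V outside the name rule (median log2 change -0.03), 13 genes of coenzyme Q synthesis (0.06), 13 of the citric acid cycle (-0.02), 10 mitochondrial carriers and porins (-0.07) and 4 cytochrome c and c1 genes (-0.10). At an unadjusted p under 0.05 these lists held, in the same order, 2, 0, 3, 0 and 0 genes that were higher and 1, 1, 1, 1 and 0 that were lower. Cycs, somatic cytochrome c, had a change of -0.11 (SE 0.10), Cyc1, the cytochrome c1 of complex III, one of -0.09 (SE 0.10), and the citrate synthase gene Cs one of -0.05 (SE 0.10). Of 17 factors that act in the transcription of respiratory genes 0 were called as well, with a median of -0.03, and 2 were higher and 3 lower at an unadjusted p under 0.05. The coactivator Ppargc1a had a change of -0.29 (SE 0.14, adjusted p = 0.340, limma), with 3M values from 12.89 to 13.42 and 29M values from 12.61 to 13.09. Nrf1 was at 12.11, 11.99, 12.22 and 11.64 at 3M and at 12.28, 12.42, 12.21 and 12.55 at 29M, which overlapped narrowly (change 0.37, SE 0.13, adjusted p = 0.203, limma). Gabpa and Tfam had changes of -0.12 (SE 0.14) and 0.16 (SE 0.10). Ppargc1b, named after its values were seen, passed the threshold of the test but not that of size (change -0.42, SE 0.10, adjusted p = 0.0856, limma). It was at 11.23, 11.34, 11.45 and 11.04 at 3M and at 10.81, 10.95, 10.92 and 10.72 at 29M, and all aged values were below all young ones. For subunits encoded by mitochondrial DNA 26 names were listed, and no probe was matched to any of them, so these subunits were not analysed here.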

How the data were processed

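For each array the authors deposited scanner intensities on a linear scale, written by Agilent Feature Extraction 10.7.3.1 per the file headers and not normalized between arrays; the study's methods name another software version and array design. Control spots and outlier spots (127 to 190 per array) were left out. Median spot intensities, from which no background had been subtracted, were normalized by a variance stabilising model (own implementation in R 4.3.3, least trimmed squares, quantile 0.9, 7 iterations), so changes of dim probes are understated. The 399 probes with 10 spots were averaged. Probes with at least 3 usable arrays per age (39408) were fitted with a term for age in limma 3.58.1 with eBayes. The fit was tested on simulated data.

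A series-wide table of deposited intensities was not used: each of its 8 columns held an array's mean local background (matched to a tolerance of 0.001), in 7 cases not the array of the sample named. Symbols came from matching accessions to RefSeq (GRCm38.p6), which named 26055 probes. A gene is given by its probe with the highest mean. Members, lists and tests were chosen with earlier results of these data known. Named genes were the called members, all of complex II, the highest and lowest changes of each complex (2 and 2 for accessory subunits of complex I and for complexes IV and V, 1 and 1 otherwise), complex IV isoform pairs, c ring genes, and 7 pathway genes; 1 of them is not reported here. Marker lists without a call are given only where set beside a result; the lists of parvalbumin interneuron, oligodendrocyte, endothelial, mural, meningeal and red blood cells had 0 called genes. Same-numbered replicates are not stated to be pairs, and their deviations correlated between -0.26 and 0.22. Alternatives covered normalization, background, outliers, dim probes, slide and replicate blocks, prior, array weights, threshold, each array left out, mean of all probes, and choroid plexus markers as a covariate.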

Additional observations from a re-analysis of the deposited data

Results flagged for a closer look

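In 4 of 78 groups of 4 samples examined (each named gene and each complex mean at each age), 1 sample lay far from the other 3. Chance gives about 1 in 20 such groups, or 3.9 of 78. For each, the gap to the nearest sample is given as a share of the group's whole range. Ndufb4 at 29M had a share of 0.916, with replicate 3 at 16.90 and the others from 17.09 to 17.10. Uqcrc1 at 3M had a share of 0.901, with replicate 3 at 15.40 and the others at 15.38, a gap of little size in a group of very small spread. Cox7b at 3M had a share of 0.850, with replicate 3 at 17.32 and the others from 17.02 to 17.06. Cox4i1 at 3M had a share of 0.847, with replicate 3 at 17.46 and the others from 17.75 to 17.81. The last 3 of these concern replicate 3 of 3M, which was also the lowest in choroid plexus and ependyma markers, and the relation of these values to each other was not tested.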

How the results depend on the processing

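Over 20 alternative settings the change of Cox8b stayed positive, from 0.95 to 1.44, and its adjusted p (limma) ranged from 0.00589 to 0.194. It was called in 11 of them, and no other member was called in any. The lowest adjusted p, and 1 of these 11 calls, came from the choroid plexus covariate, the setting added after seeing the data. The count of called members was 0, not 1, with log2 processed signals minus the 75th percentile, with the replicate block, with a fixed block for slide and at an adjusted p under 0.05, and it was 0 to 1 on leaving out each array. Members called lower numbered 0 throughout. With the replicate block, whose numbers are not stated to pair the samples, 275 probes were called higher and 159 lower, against 476 and 296. Array weights gave 787 and 570, an adjusted p under 0.05 gave 306 and 181, and leaving out each array in turn gave 250 to 792 higher and 131 to 594 lower. Members with separate groups numbered 2 to 7 higher and 4 to 13 lower on leaving out each array, and 1 was higher when processed signals entered the variance stabilising model. With fewer arrays, groups separate more often by chance in any gene. The share over all genes was not counted under these settings, so these counts cannot be read as a trait of the members. Intervals inside -0.5 and 0.5 numbered 77 to 86. The median of complex I assembly was -0.086 with those signals in the model, -0.097 with the 75th percentile and 0.037 with array weights, and from -0.060 to 0.030 on leaving out each array. The median of complex III was -0.022, -0.033 and -0.0082 with those signals, the 75th percentile and the mean of all probes, and from -0.013 to 0.051 on leaving out each array. Of 659 results of the 33 named genes under alternatives, 645 moved by less than the spread between replicates or kept their call, 9 are the lost calls of Cox8b, 5 moved further, and 15 uncalled values changed sign. The cause was not tested. With 4 arrays per age, changes of dim probes such as Cox8c have no usable precision.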
